A study of Rattus norvegicus with 6 samples.

Results

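The perineuronal net and hyaluronan matrix genes described here are 10 of the 38445 genes counted in the rat amygdala, chosen by symbol: the lecticans Acan, Bcan, Ncan and Vcan, the link proteins Hapln1 and Hapln4, the tenascins Tnr and Tnc, the receptor phosphatase Ptprz1 and the hyaluronan synthase Has2. The rule that picks them uses gene symbols and no measured value, although the list was drawn up with earlier results of these data known. The libraries came from adult male wild-type Sprague Dawley rats, 6 given saline (control) and 6 injected intraperitoneally with ethanol (1 g/kg), and the amygdala was collected 1 h later. RNA of 2 rats was pooled for each library, which left 3 control and 3 ethanol libraries of poly(A)-selected RNA, so the spread given below is between pools and not between single rats. The comparison addressed here is whether the matrix genes differed in mRNA level 1 h after a single dose of ethanol.

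None of the 10 genes changed past the threshold. All were detected in every library, with 63 to 39459 reads, and all 10 had an adjusted p of 1.00 in edgeR's quasi-likelihood test after Benjamini-Hochberg correction. Their log2 fold changes lay between -0.07 for Tnc and 0.13 for Hapln4. The control and ethanol libraries overlapped for each of the 10 genes, while 8.85% of all genes tested showed no overlap. What differed among the genes was their level, which ran over more than 2 orders of magnitude per unit length, and how steady each was from pool to pool.

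Perineuronal nets are lattices of extracellular matrix that wrap the soma and proximal dendrites of certain neurons, best known for parvalbumin-containing interneurons. A hyaluronan chain, made at the plasma membrane by a synthase, carries chondroitin sulfate proteoglycans of the lectican family. Link proteins lock each lectican to hyaluronan, and tenascin-R crosslinks the lecticans at their other end. The same components also form the looser matrix between cells and around nodes of Ranvier, so mRNA from whole tissue does not separate nets from the rest of the matrix.

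In the Rnor_6.0 annotation used for counting, each lectican gene sits next to a link protein gene with 0 genes between them. Ncan (gene ID 58982, chr16:21050243-21076707, + strand) and Hapln4 (361129, chr16:21081377-21089508, - strand) end 4669 bases apart, tail to tail. Vcan (114122, chr2:18490102-18587340, - strand) and Hapln1 (29331, chr2:18354542-18419077, + strand) also point at each other, over 71024 bases. Acan (58968, chr1:140762758-140824441, + strand) ends 2837 bases from Hapln3, and Bcan (25393, chr2:187359674-187373133, - strand) lies 21970 bases from Hapln2 on the same strand. The remaining members, whose neighbouring genes were not examined, are Tnr (25567, chr13:77602249-77678385, +), Tnc (116640, chr5:79789686-79874555, -), Ptprz1 (25613, chr4:49941046-50140764, +) and Has2 (25694, chr7:96438046-96464049, -). No exon of a member overlapped an exon of another gene on the same strand. Has2 shared 467 exonic bases with LOC108351495 on the opposite strand, which the stranded counting kept apart.

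Promoter sequences were taken from RefSeq, in the GRCr8 assembly, whose coordinates differ from those of the counts. Of the 10 members, 8 had an entry, and the other members were Ptprz1 and Has2. Vcan had more than 1 entry, of which the first was used, and the starts for Bcan, Tnr and Tnc were not at the outer end of the annotated gene. The 250 bases before the annotated start are shown for the neighbours Ncan and Hapln4, whose mRNA levels were close to each other, and for Acan, the scarcest lectican. Capitals mark any GC box (GGGCGG) or TATA box (TATAAA) on either strand. Lower case is the rest, and each is written 5′ to 3′ on the strand of its gene.
Acan, chr1:142390701-142390950, + strand: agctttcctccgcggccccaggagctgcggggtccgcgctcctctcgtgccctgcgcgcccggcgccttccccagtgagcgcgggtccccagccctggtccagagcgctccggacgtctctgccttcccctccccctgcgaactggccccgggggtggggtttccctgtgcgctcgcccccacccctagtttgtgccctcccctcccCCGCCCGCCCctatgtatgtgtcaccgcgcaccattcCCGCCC
Ncan, chr16:19335657-19335906, + strand: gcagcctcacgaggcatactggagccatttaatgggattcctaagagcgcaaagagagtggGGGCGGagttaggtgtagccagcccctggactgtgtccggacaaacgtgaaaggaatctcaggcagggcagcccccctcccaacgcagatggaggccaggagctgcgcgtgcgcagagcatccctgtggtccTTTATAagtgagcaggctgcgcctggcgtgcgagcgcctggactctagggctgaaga
Hapln4, chr16:19375174-19375423, - strand: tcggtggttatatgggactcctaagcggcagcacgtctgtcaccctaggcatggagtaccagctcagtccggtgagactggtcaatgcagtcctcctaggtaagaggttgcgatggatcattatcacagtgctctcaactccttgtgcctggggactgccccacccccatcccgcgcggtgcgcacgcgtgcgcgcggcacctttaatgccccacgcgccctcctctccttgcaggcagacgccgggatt
The Acan window held 73.6% G and C and 24 CpG, against a median of 51.2% and 5 CpG over the 33469 promoter entries. It contained 3 GC boxes on the reverse strand, of which the first and second overlap. The Ncan window, with 60.8% G and C and 13 CpG, held 1 GC box and a reverse-strand TATA box. In the Hapln4 window, at 61.2% and 18 CpG, neither motif was present. Across the members, a GC box was found in 5 and a TATA box in 2, with 30.5% and 12.9% of all entries holding them. The glucocorticoid receptor half-site AGAACA (17.5% of entries) and the full cyclic AMP response element TGACGTCA (1.59%) were in 0 of the 8 windows. Its half-site TGACG, which also lies within the full element and was in 18.2% of entries, was in 1 window. These matches describe the letters in the windows and were not tied to binding.

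The depth was even, with 62576504 to 70755739 assigned reads per library. Expression is given as counts-per-million values of the assigned reads, scaled by TMM (CPM), and 3 reads in a library correspond to 0.0424 to 0.0479 CPM. Where genes are compared with each other, transcripts-per-million values (TPM) computed from exonic length are used instead. Of the 18141 genes with enough reads to test, 0% had an adjusted p below 0.2 by edgeR's quasi-likelihood test, where the smallest adjusted p was 0.807. An unadjusted p below 0.05 was reached by 763 genes, or 4.21%, with 1.59% higher and 2.61% lower after ethanol, and in 8.85% the control and ethanol libraries did not overlap. From the same counts, DESeq2 called 81 genes and limma-voom 0. The study, with its own statistics, did report genes below an FDR of 0.2. Against those shares, 0 of the 10 matrix genes reached an unadjusted p below 0.05, and 0 showed groups that did not overlap. All 8 genes listed for amygdala nuclei were detected, with Sst, the somatostatin precursor, at 132 to 167 CPM and Crh at 2.52 to 3.30 CPM. Detection alone does not identify the tissue.

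Brevican (Bcan), a brain lectican made by glia and neurons, was the most abundant proteoglycan of the family. It stood at 294, 309 and 305 CPM in the control libraries and at 297, 311 and 340 CPM in the ethanol libraries. Ethanol 1 lay within the narrow control range, ethanol 2 just above it and ethanol 3 further above. The fitted log2 fold change was 0.06 (SE 0.07), and its 95% interval ran from -7.03% to 16.97%.

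Neurocan (Ncan), a lectican of developing and adult neurons and astrocytes, was at 120, 145 and 127 CPM in the control libraries. After ethanol it was at 133, 142 and 129 CPM. All 3 ethanol values sat inside the control range, with a log2 fold change of 0.04 (SE 0.08). Versican (Vcan), the lectican with the longest core protein forms and a component of the matrix at nodes of Ranvier, was at 36.8, 32.3 and 32.4 CPM in controls and at 34.8, 37.8 and 34.2 CPM after ethanol. One ethanol library exceeded every control, control 1 exceeded the other ethanol libraries, and the log2 fold change was 0.08 (SE 0.08).

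Aggrecan (Acan), the lectican most closely tied to the perineuronal net itself, was scarce in this tissue. Its values were 4.04, 3.89 and 3.11 CPM in controls and 3.23, 4.15 and 3.32 CPM after ethanol, or 197 to 276 reads per library. The lowest value was a control and the highest an ethanol library, and the log2 fold change was -0.05 (SE 0.16). The 95% interval for aggrecan ran from -24.7% to 24.4%, wider than that of the other lecticans. Its spread within groups (13.6% and 14.3% of the mean) exceeded the 6.45% that counting alone gives, so depth was not the main limit.

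Link proteins stabilise the bond between lecticans and hyaluronan. Hapln4, also called Bral2, is a neuronal link protein that accompanies brevican in nets. It was at 88.5, 109 and 81.3 CPM in controls and at 99.8, 108 and 96.5 CPM after ethanol. All 3 ethanol libraries exceeded control 1 and control 3, while control 2 exceeded all 3 ethanol libraries. Hapln4 had the largest difference of the 10 genes, a log2 fold change of 0.13 (SE 0.11), with a 95% interval from -8.55% to 30.3%. It also had the smallest unadjusted p of the members, 0.285. Without control 2 the log2 fold change was 0.26 with an unadjusted p of 0.0135 and an adjusted p of 0.972 by edgeR's quasi-likelihood test, and without control 3 it was 0.04.

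Hapln1, the link protein found on net-bearing neurons and the partner of aggrecan in cartilage, was at 67.6, 69.5 and 76.3 CPM in controls. After ethanol its values were 80.1, 70.6 and 63.0 CPM, both above and below the control range. The means were 71.1 ± 4.56 CPM in control and 71.2 ± 8.57 CPM after ethanol (SD, n = 3 each), with a log2 fold change of 0.00 (SE 0.09). Its direction changed under 6 of the 8 alternatives that used all 6 libraries, and the 95% interval ran from -14.0% to 16.6%.

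**Figure D1:**
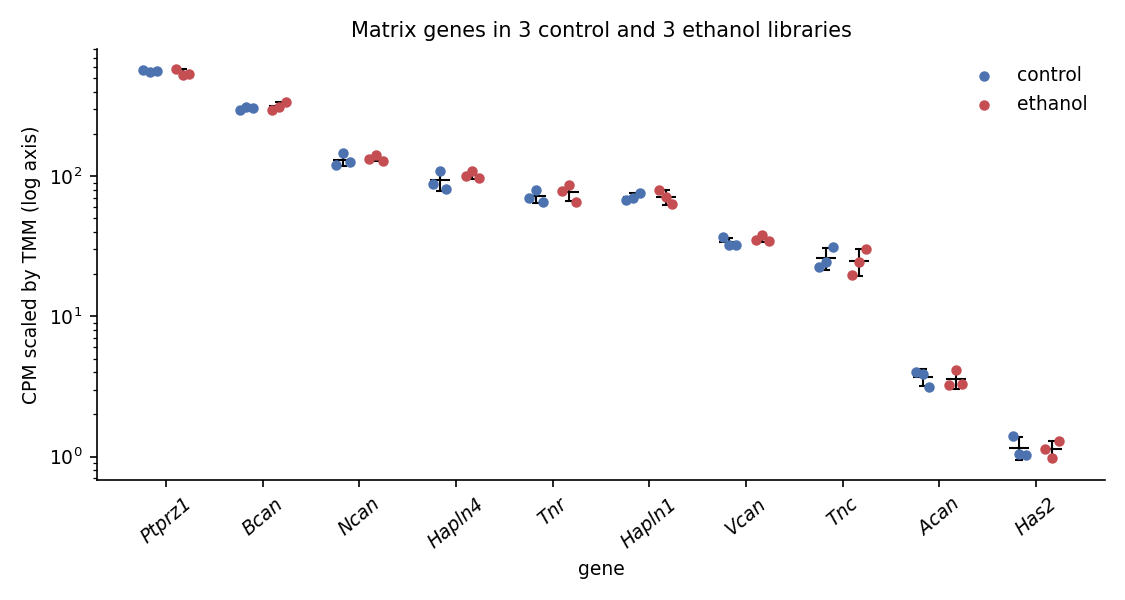
Expression of the 10 matrix genes in each library, as CPM scaled by TMM on a log axis (blue, control; red, ethanol), with the mean and SD of each group of 3 as black bars. Control and ethanol points overlap for every gene, from Ptprz1 at 528 to 582 CPM down to Has2 at about 1 CPM.

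Tenascin-R (Tnr), the crosslinker of lecticans made by oligodendrocyte lineage cells and some neurons, was at 70.3, 80.2 and 65.8 CPM in controls. In the ethanol libraries it was at 78.8, 86.3 and 65.8 CPM. The highest value was ethanol 2, and ethanol 3 and control 3 were level at the bottom. The log2 fold change was 0.09 (SE 0.11), falling to 0.00 without ethanol 2 and rising to 0.19 without ethanol 3.

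Tenascin-C (Tnc), an astrocyte glycoprotein of the developing and remodelling brain, varied the most from pool to pool. It was at 22.5, 24.6 and 31.2 CPM in controls and at 19.7, 24.2 and 30.3 CPM after ethanol. Each group thus spanned nearly the same range, and the log2 fold change was -0.07 (SE 0.17). The within-group SD of Tnc on the log2 scale was 0.27, larger than in 92.8% of the 14241 genes above 1 CPM in every library. For comparison, the median gene had an SD of 0.11.

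Ptprz1 encodes a receptor phosphatase whose secreted form, phosphacan, is itself a chondroitin sulfate proteoglycan of the nets and binds tenascins. Reads were summed over all exons of the gene, so phosphacan and the membrane forms were counted together. It was the steadiest of the 10, at 574, 556 and 564 CPM in controls and 582, 528 and 538 CPM after ethanol. Ethanol 1 was the highest library and ethanol 2 and 3 the lowest, with the 3 controls between them. The within-group SD was 0.05 on the log2 scale, at the 12.8th percentile of genes above 1 CPM, and the log2 fold change was -0.04 (SE 0.07). The 95% interval ran from -13.3% to 9.31%.

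Has2, a plasma membrane synthase of long hyaluronan chains, was the least expressed member. It was at 1.41, 1.04 and 1.03 CPM in controls and at 1.14, 0.98 and 1.29 CPM after ethanol, which is 63 to 92 reads. Control 1 was the highest library and ethanol 2 the lowest. The log2 fold change was -0.02 (SE 0.20), with a 95% interval from -28.3% to 35.0%, the widest of the 10 genes. A counting error of 11.5% of the mean stood behind values that varied by 18.6% and 13.8% within the groups.

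Over the 10 genes, 6 had a log2 fold change above 0 and 4 below, and the median was 0.02 against 0.01 over all genes tested. All 10 of the 95% intervals held 0. How far each gene was pinned down differed, from -13.3% to 9.31% for Ptprz1 to between -28.3% and 35.0% for Has2. Taken by library, the median of the 10 log2 differences from the control mean was -0.04, 0.00 and -0.05 for controls, and 0.04, 0.08 and 0.00 for ethanol. The highest control and the lowest ethanol library thus met at the same value. A 2-sided exact permutation test on single genes gave p from 0.3 to 1 for the members, and with 20 relabellings of 3 against 3 it cannot give a p below 0.1.

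**Figure D2:**
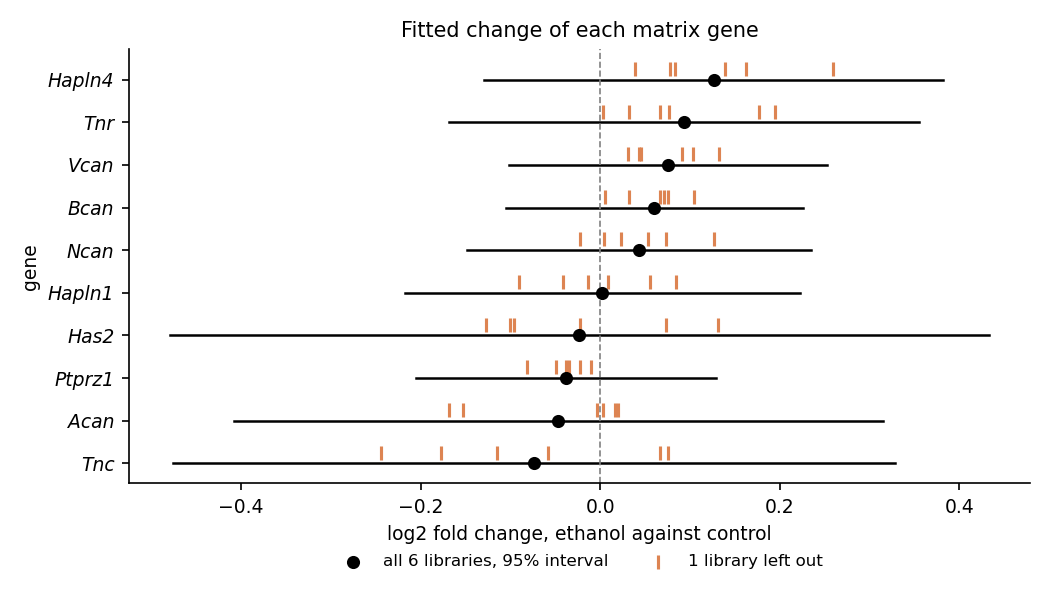
Log2 fold change of each matrix gene, ethanol against control (black points, all 6 libraries, with 95% intervals as lines), and the same fit after dropping 1 library at a time (orange ticks). All intervals cross 0, and the ticks of Acan, Ncan, Hapln1, Tnc and Has2 fall on both sides of it.

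Per unit length, the mean levels over all libraries ran from 145.5 TPM for Bcan to 0.71 TPM for Has2. The length covers all annotated exons of a gene, so TPM comes out low where its transcripts leave some out. Orders, ratios and shares between genes depend on this, which was not examined. Bcan and Ptprz1 (145 TPM) shared the top, each ahead in 3 of the 6 libraries. Next came Hapln4 at 68.8 TPM and Ncan at 66.4 TPM, a pair whose ranges overlapped, with Hapln4 ahead in 5 of 6 libraries by a mean ratio of 1.03. Ptprz1 stood 2.12 times above Hapln4 on average, with no overlap.

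In the middle of the order, Hapln1 (37.1 TPM) was above Tnr (30.1 TPM) in each of the 6 libraries although their ranges overlapped. Tnr was in turn 3.49 times above Tnc (8.67 TPM). Tnc and Vcan (7.51 TPM) could not be ordered, since Tnc was higher in 4 of 6 libraries and the ranges overlapped. Acan at 1.36 TPM was 5.55 times below Vcan on average and 1.90 times above Has2, with no overlap at either step.

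The make-up of each family overlapped between the control and ethanol libraries. Bcan made up 64.2% to 68.6% of lectican TPM and Ncan 27.7% to 32.1%. Vcan contributed 3.08% to 3.83% and Acan 0.535% to 0.730%. Mean shares of Bcan were 65.8% ± 1.41 in control and 66.0% ± 2.25 after ethanol (SD, n = 3 each). For each lectican the ranges of the control and ethanol shares overlapped.

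The link proteins were less constant. Hapln4 took 41.0% to 56.4% of link protein TPM and Hapln1 20.2% to 29.9%, while Hapln2, a link protein of nodes of Ranvier that is not among the members, took 16.4% to 37.2%. Hapln3, the more widely expressed link protein, stayed between 0.682% and 0.931%. Tnr accounted for 71.4% to 82.5% of the summed Tnr and Tnc. Of the 3 hyaluronan synthases, Has3 held 46.4% to 58.7% and Has2 38.4% to 49.3%, with Has1 too low to be tested. None of these shares separated the groups.

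**Figure D3:**
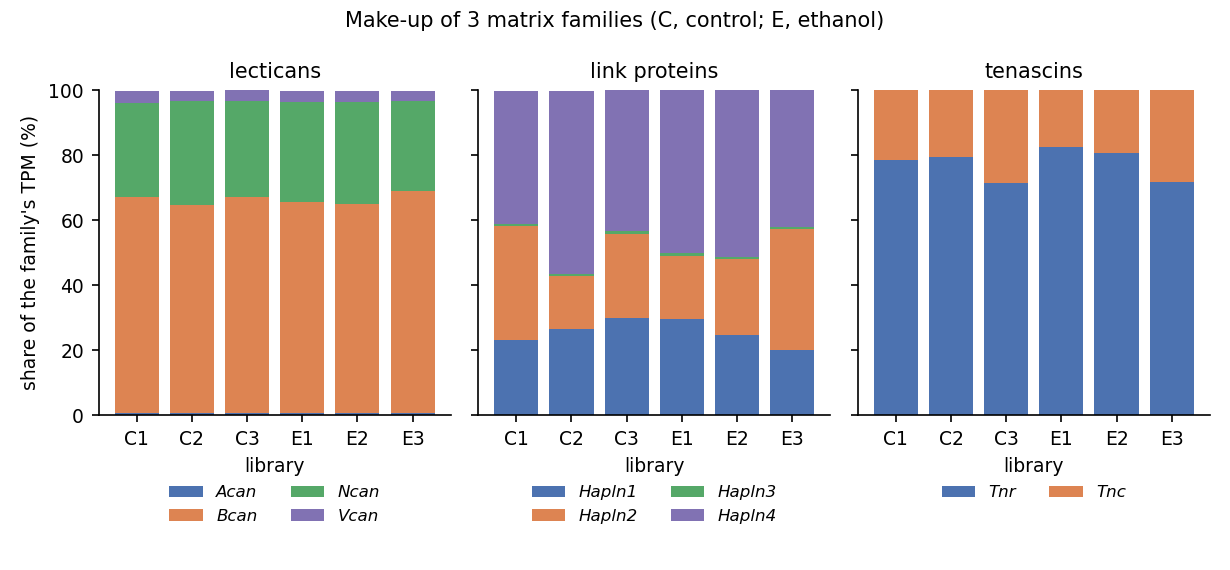
Share of each gene in the summed TPM of its family in the 6 libraries, as stacked bars from 0 to 100%. Bcan and Ncan fill nearly the whole lectican bar in every library, with Acan a line below 1% at its foot, while the Hapln2 share swings between 16.4% and 37.2%.

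Matrix mRNA in bulk tissue depends on how many cells of each type were dissected and on the RNA per cell, and these cannot be told apart. Marker genes of 12 cell types or regions were therefore summed per library. The 6 parvalbumin-type interneuron markers summed to 217 to 268 CPM in controls and 235 to 251 CPM after ethanol, and Pvalb itself was at 16.3, 15.1 and 12.2 CPM in controls and 14.4, 20.1 and 15.6 CPM after ethanol. Control and ethanol libraries overlapped for each of the 6 markers, while the groups did not overlap in 8.85% of all genes tested. Their log2 fold changes ran from -0.38 for Tac1 (unadjusted p 0.0516 by edgeR's quasi-likelihood test) to 0.20 for Pvalb. Tac1 is also expressed by other neurons. The most abundant of the list were Kcnc1 at 78.8 to 93.3 CPM and Kcnc2 at 68.8 to 91.6 CPM, so the sum mostly follows them.

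Other lists also varied from pool to pool, and some shared their highest or lowest library with single members. The 5 pan-neuronal markers summed to 3527 to 3995 CPM in controls and 3432 to 4561 CPM after ethanol, highest in ethanol 2 and lowest in ethanol 3. Tnr had the same highest library and was lowest in ethanol 3, level with control 3. The summed markers of amygdala nuclei had the same library order as the pan-neuronal markers. Markers of pallial glutamatergic neurons summed to 1152 to 1669 CPM and 1243 to 1913 CPM, and were lowest in control 1, the library with the least Ncan. At the other end, Ncan was highest in control 2 and these markers in ethanol 2. Hapln4 was highest in control 2 and lowest in control 3, and so shared neither end with the pan-neuronal or pallial markers.

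The 8 astrocyte markers summed to 5350 to 6632 CPM in controls and 5542 to 7507 CPM after ethanol, with ethanol 3 and control 3 on top. These were also the 2 libraries with the most Tnc, in the opposite order, whereas the lowest library was control 2 for the markers and ethanol 1 for Tnc. The 7 oligodendrocyte markers spanned 3593 to 8483 CPM and 4403 to 9823 CPM, in exactly the library order of Hapln2, with ethanol 3 first and control 2 last. The sums overlapped between groups for these lists, and their part in the spread of the matrix genes was not tested. Single markers did separate the groups, as 8.85% of all genes tested did. Sox9 of the astrocyte list was lower after ethanol in every library (log2 fold change -0.43, unadjusted p 0.00793). Of the other astrocyte markers only Slc1a3 (-0.03) was below 0, Gfap was at 0.29, and the list's median was 0.06. Tbr1 of the pallial list was higher (0.55, unadjusted p 0.000158), with a list median of 0.17. Neither Sox9 nor Tbr1 passed the adjusted threshold in edgeR's quasi-likelihood test, with adjusted p of 0.999 and 0.807. The study, with its own statistics, reported Tbr1 as increased in RNA-seq and also by qPCR.

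**Figure D4:**
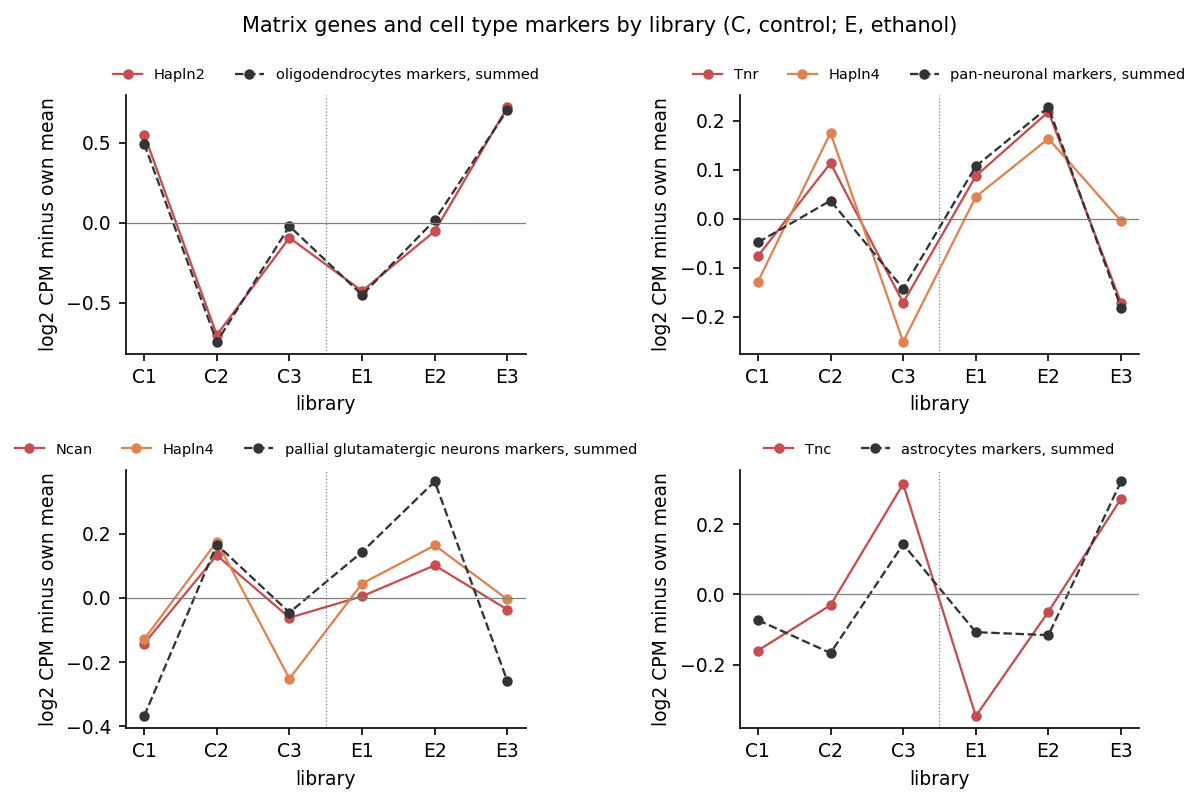
Log2 CPM of matrix genes (colored lines) and of the summed markers of a cell type (dashed black line), each minus its own mean over the 6 libraries, with control libraries left of the dotted line. Hapln2 follows the oligodendrocyte markers closely. Tnr shares its highest and lowest library with the pan-neuronal markers, although its lowest, ethanol 3, is level with control 3. Ncan shares its lowest but not its highest library with the pallial markers. Hapln4 shares neither end with the pan-neuronal or pallial markers. Tnc shares its 2 highest libraries, but not its lowest, with the astrocyte markers.

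In 1 list the sums separated the groups. The 8 choroid plexus markers summed to 523, 1129 and 900 CPM in controls and to 13.6, 14.3 and 483 CPM after ethanol. Ttr made up most of these control sums, at 462, 996 and 817 CPM, and was at 425 CPM in ethanol 3. Its unadjusted p was 0.150 by edgeR's quasi-likelihood test. By that test 5 of the 8 were lower after ethanol at an unadjusted p below 0.05, against 2.61% of all genes. Folr1, Clic6 and Cldn2 overlapped between groups, with ethanol 3 above control 1. In each of the 10 matrix genes the control and ethanol libraries overlapped, as they did in all but 8.85% of the genes tested. Any link between the choroid plexus difference and the matrix genes was not tested. Of the 7 leptomeningeal and fibroblast markers, Col1a2 and Ogn were at 0 counts in every library, and the sums of the list overlapped at 57.4 to 114 CPM and 52.0 to 90.2 CPM. The sums also overlapped for oligodendrocyte precursors (411 to 462 and 435 to 507 CPM, with Neu4 at 0 counts), endothelial and mural cells (198 to 219 and 197 to 224 CPM), microglia (219 to 243 and 221 to 259 CPM) and striatal-type GABA neurons (285 to 451 and 328 to 491 CPM). Across these lists and the amygdala nuclei, Tmem119 (microglia, 0.57) and Cartpt (amygdala nuclei, 0.45) were higher on the log2 scale, and Dcn (fibroblasts, -0.69) lower. Each had an unadjusted p below 0.05 by edgeR's quasi-likelihood test, as did 4.21% of all genes. Median log2 fold changes of their lists were 0.01, 0.03 and -0.14. The microglia markers P2ry12, Cx3cr1 and Aif1 were below 0.

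The genes that build, modify, cut or bind the matrix were read from a list of 62, of which 60 were tested and Has1 and Otx2 were too low. At an unadjusted p below 0.05, 1 was higher and 3 were lower after ethanol, or 6.67% of the 60, against 4.21% of all genes. None had an adjusted p below 0.2 by edgeR's quasi-likelihood test. The median log2 fold change was 0.02, and in 7 of the 60 the groups did not overlap, against 8.85% of all genes.

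The matrix proteases held 2 of the 3 lower genes among 10 tested, or 20%, against 2.61% of all genes, with a median log2 fold change of -0.09. No test was run over the role. Adamts1, a secreted protease that cleaves aggrecan and versican, was at 6.72, 6.20 and 6.17 CPM in controls and 4.61, 4.13 and 4.86 CPM after ethanol. Every ethanol library lay below every control. The log2 fold change was -0.49 (SE 0.11), with an unadjusted p of 0.00201 and an adjusted p of 0.809 by edgeR's quasi-likelihood test. DESeq2 gave an adjusted p of 0.102, and over all alternatives the adjusted p ran from 0.102 to 1.00. Leaving out any 1 library kept its log2 fold change between -0.54 and -0.42.

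Mmp14, a membrane-anchored metalloproteinase, was at 18.5, 19.97 and 23.1 CPM in controls and 15.7, 17.3 and 16.8 CPM after ethanol. Here too the groups did not overlap, with a log2 fold change of -0.31 (SE 0.10), an unadjusted p of 0.0135 and an adjusted p of 1.00 by edgeR's quasi-likelihood test. A further protease without overlap was Mmp3, at a log2 fold change of -0.69 (SE 0.33) and an unadjusted p of 0.0708, which was scarce at 0.394 to 0.474 CPM in controls and 0.144 to 0.373 CPM after ethanol. The other 7 proteases overlapped between groups, from Mmp2 at -0.20 (SE 0.11) to Mmp9 at 0.31 (SE 0.46).

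Midkine (Mdk), a heparin-binding growth factor that is a ligand of Ptprz1, was at 27.8, 38.4 and 39.95 CPM in controls and 17.6, 17.4 and 32.8 CPM after ethanol. Ethanol 1 and ethanol 2 lay below all controls and ethanol 3 lay among them. Ethanol 1 and ethanol 2 were also the libraries with the least choroid plexus marker RNA. The sum of that list was below all controls in ethanol 3 as well, and the list's part in the Mdk result was not tested. The log2 fold change was -0.65 (SE 0.26), with an unadjusted p of 0.0374 and an adjusted p of 1.00. Without ethanol 3 it was -1.02 with an adjusted p of 0.138 by edgeR's quasi-likelihood test. Pleiotrophin (Ptn), the related ligand of Ptprz1 and far more abundant at 578 TPM, had a log2 fold change of 0.00 (SE 0.11).

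Sema3a, a secreted guidance cue that binds the chondroitin sulfate of nets, was at 53.5, 46.3 and 52.0 CPM in controls and 70.8, 55.4 and 56.4 CPM after ethanol. The groups did not overlap, with ethanol 1 the highest, and the log2 fold change was 0.27 (SE 0.11). The unadjusted p was 0.0379 and the adjusted p 1.00 by edgeR's quasi-likelihood test. Without ethanol 1 the log2 fold change was 0.14.

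None of the other steps of matrix assembly held a gene with an unadjusted p below 0.05. Ugdh, which makes the UDP-glucuronate used for hyaluronan and chondroitin sulfate, had a log2 fold change of -0.12 (SE 0.08). Among the 13 genes of chondroitin sulfate chain synthesis the range was -0.18 to 0.14, with 0 at an unadjusted p below 0.05, and B3gat3, which completes the linker to the core protein, was at 0.08 (SE 0.07). Of the 8 sulfotransferases, Chst11, a 4-O-sulfotransferase, was at -0.10 (SE 0.08), and the extremes were Ust at -0.14 and Chst13 at 0.56, the latter at only 0.127 to 0.312 CPM. Every ethanol library lay below every control for Ust and for Csgalnact2 of chain synthesis, and above for Chst13. Their unadjusted p by edgeR's quasi-likelihood test was 0.118, 0.0975 and 0.117.

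Hyaluronan receptors and breakdown genes ranged from -0.17 for Cemip2 to 0.32 for Lyve1, with 0 of 8 at an unadjusted p below 0.05. The lysosomal hyaluronidase Hyal1, which shares exonic bases with same-strand neighbours and whose count is therefore uncertain, was at -0.04 (SE 0.13). The 4 metalloproteinase inhibitors lay between -0.06 and 0.02, including Timp2 at 645 TPM. Hapln2 was at 0.16 with an SE of 0.36, and the brain proteoglycan Cspg5 at -0.01 (SE 0.06).

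**Figure D5:**
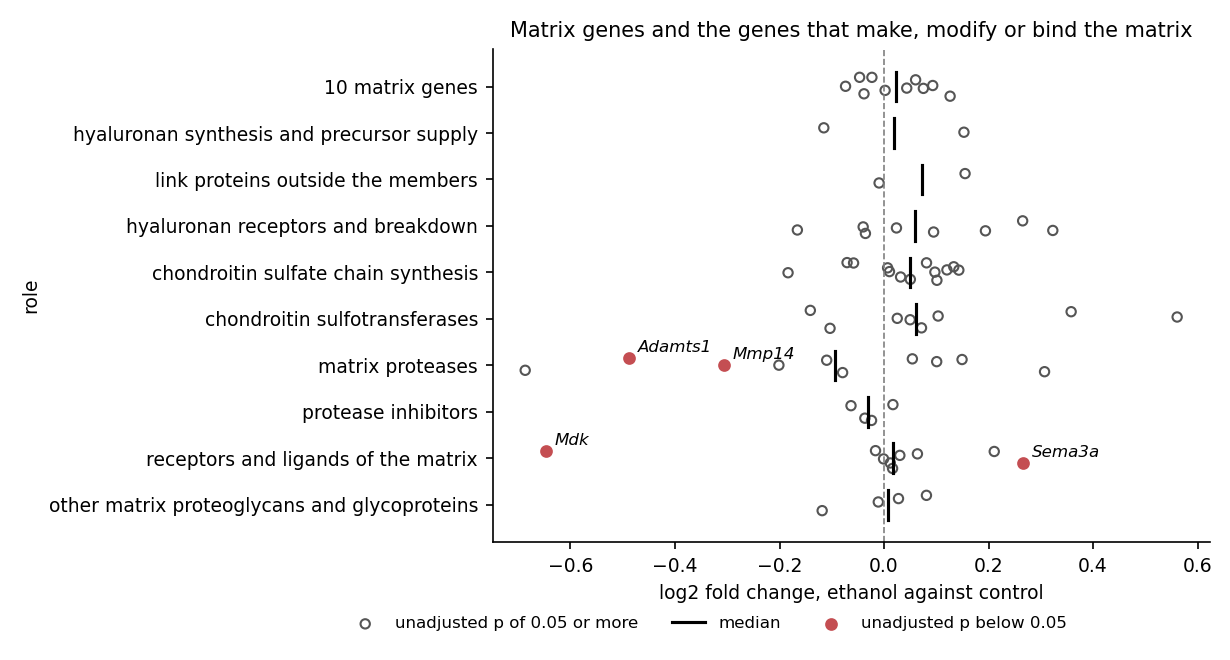
Log2 fold change, ethanol against control, of the 10 matrix genes and of 60 genes that make, modify or bind the matrix, by role (circles, genes; black lines, medians; red, unadjusted p below 0.05). The matrix genes sit between -0.07 and 0.13, and the 4 red genes are Adamts1, Mmp14 and Mdk to the left and Sema3a to the right.

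The pathway genes whose library pattern was most like that of Hapln4 were B3galt6, a galactosyltransferase of the linker region, Cntn1, a neuronal adhesion molecule, and Chpf, a chondroitin polymerizing factor. Their log2 CPM, centred on each gene's own mean, differed from that of Hapln4 by 0.05, 0.06 and 0.06 on average over the 6 libraries, against a median of 0.17 over the 60 genes. The difference also grows with a gene's own spread, so a steady gene can lie below that median without a like pattern. All 4 genes share the same libraries, so this is a description of the pools.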

How the data were processed

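RNA-seq was carried out on amygdala RNA pooled from 2 rats per library, with 3 control and 3 ethanol libraries taken 1 h after injection. Reads of 100 nt came from a stranded mRNA kit sequenced on 3 lanes. The authors deposited raw counts per gene, made by featureCounts 1.6.3 with strand setting 2 on Rnor_6.0, per the file headers. The submitters' processing notes also name FastQC 0.11.8, STAR 2.7.0f, R 3.6.2, edgeR and limma. The details of the study's RNA-seq statistics were not used here. No value had been normalized or filtered. Reads on several genes or places were not counted, so shared sequence lowers a gene's count.

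Symbols were matched by gene ID to a RefSeq gene table (GRCr8) for 29322 of 38445 genes. The members and lists were chosen with earlier results of these data known. All 10 members were named. Of the 62 pathway genes, those with an unadjusted p below 0.05, the gene of highest TPM in each role and the 3 most like Hapln4 were named, and others given as range ends, counts or comparisons were picked after their values were seen.

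In R 4.3.3 with edgeR 4.0.16, filterByExpr (minimum 10, total 15) left 18141 genes. Libraries were scaled by TMM, with factors of 0.976 to 1.01, and groups were compared by the quasi-likelihood F test over all 6 libraries with Benjamini-Hochberg adjustment and the study's threshold of 0.2. The exact permutation test and the centred log2 values used log2(CPM + 0.5). The script was tested on simulated data. Assigned reads were 62576504 to 70755739 per library. Within groups, chi-square per degree of freedom was 15.3 to 72.6, so pools differed by more than counting error and no library was a duplicate. Intervals of fold changes cover the spread between pools. Libraries of the same number hold different rats, so the numbers were not taken to pair them in the main fit. Their deviations correlated by 0.0264, 0.388 and 0.211, and those of libraries of different number by -0.427 to 0.305. A fit with the number as a block is among the alternatives.

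Alternatives were RLE or library size scaling, no filter or a minimum of 1 CPM in 3 libraries, the likelihood ratio test, DESeq2 1.42.0, limma-voom (limma 3.58.1), a replicate block and leaving out each library. Figures were drawn with matplotlib 3.10.9.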

Additional observations from a re-analysis of the deposited data

How the results depend on the processing

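No member had an adjusted p below 0.2 under any of the 14 alternatives. Of 140 member values, 123 kept their direction, and of the 17 that did not, 6 used all 6 libraries and were all Hapln1. Its log2 fold change was -0.00058 with RLE, -0.026 with library size alone, -0.0036 above 1 CPM, -0.00036 with DESeq2, -0.0028 with limma-voom and -0.0027 with the replicate block. With library size alone the members' median was -0.0047, the median of all genes -0.02, and 41.7% of genes were higher after ethanol against 52.7% with TMM. Called genes numbered 77 by the likelihood ratio test and 81 by DESeq2, against 0 by limma-voom and 0 with the replicate block, where 1030 genes had an unadjusted p below 0.05. Leaving out 1 library gave 0 to 82 called genes (82 without ethanol 3, 4 without ethanol 1), and 0 to 1 members at an unadjusted p below 0.05 (Hapln4 without control 2). The members' median was then 0.01 to 0.06. Log2 fold changes with 1 library left out ran from -0.17 to 0.020 for Acan, -0.022 to 0.13 for Ncan, -0.090 to 0.084 for Hapln1, -0.24 to 0.076 for Tnc and -0.13 to 0.13 for Has2. They ran from -0.24 to 0.52 for Hapln2, -0.18 to 0.066 for Hyal1, -0.078 to 0.14 for Timp2, -0.12 to 0.11 for Ptn and -0.040 to 0.021 for Cspg5. Timp2 was at -0.011 with library size alone, and Ptn was at 0.00052 without the filter, 0.010 with limma-voom and 0.012 with the replicate block. With 1 library left out, unadjusted p ran from 0.00214 to 0.0100 for Adamts1, 0.00621 to 0.0513 for Mmp14, 0.000345 to 0.117 for Mdk and 0.0234 to 0.130 for Sema3a. The cause of these shifts was not tested. Counting error was 0.520% of the mean for Ptprz1 and 11.5% for Has2, whose pools varied by 18.6% in control and 13.8% after ethanol.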
